A study of Homo sapiens and Mus musculus with 16 samples.

Results

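The conservation of P-body RNA content was examined between a human and a mouse cell line by comparing 7205 genes whose symbols matched, ignoring case, in the human and the mouse count tables. Each gene had a mean of at least 5 CPM (counts per 1e+06, scaled to the normalised library total) in both cell types. These members were taken from 12671 matched symbols with a count in both, where the tables listed 22286 human and 15881 mouse genes. The human cells were HEK293T, a human embryonic kidney line, and the mouse cells were KH2 embryonic stem cells (mESC), labelled as serum-LIF, whereas the culture that the study's methods describe for mouse ES cells is a naive medium without serum. Both lines carried LSM14A fused to GFP, which per the study's methods was delivered by a lentiviral vector with an EF1a promoter, and no library came from untagged cells. P-bodies were the GFP-positive particles sorted from the cytoplasmic fraction. Per the study's methods, lysate was cleared of nuclei and spun again, and the resuspended pellet of that later spin was the cytoplasmic fraction. What is called cytoplasm here was this pellet before the sort, which therefore still held P-bodies, and not the whole soluble cytoplasm. There were 2 libraries of each fraction in each cell type, all of total RNA and random primed. Species, cell type and gene annotation differ together between these lines and cannot be told apart.

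P-bodies are cytoplasmic condensates of messenger RNA with decapping factors and translational repressors, among them the helicase DDX6, the scaffold EDC4 and LSM14A. Messenger RNAs that collect in them are translated weakly, and in several cell lines they have been AU-rich. GC3 is the share of G or C at the last positions of codons, most of which can vary without changing the protein, so that a human and a mouse transcript can encode the same peptide with a different base composition.

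The 8 libraries held between 8148119 and 17972284 counts. Replicates of a fraction correlated across members with a Spearman rho of 0.994 to 0.996, and they differed by more than sampling noise, with a chi-square per gene of 2.15 to 5.72. The summed level of 10 pluripotency markers, led by Tfcp2l1, Nanog and Pou5f1, was 5420 to 5700 CPM in the mESC libraries and 24.1 to 54.9 CPM in the HEK293T libraries, where 8 of them were counted. None of 7 fibroblast feeder markers was counted in the mouse table. A list of 9 HEK293T genes, which included EYA1 and HOXA10, summed to 267 to 465 CPM in HEK293T and to 39.0 to 78 CPM in mESC, where 6 of them were counted. Ribosomal RNA took 4.32% and 4.76% of counts in the HEK293T P-body libraries against 15.9% and 16.6% in cytoplasm, and 3.09% and 3.16% against 9.63% and 11.1% in mESC. With the ribosomal RNA genes left out, 89.1% of members called in both cell types had the same direction, against 89.0% with them. Of 4 nuclear RNAs, RN7SK averaged 1700 CPM in HEK293T P-bodies and 8400 CPM in cytoplasm. The other 3 were higher in HEK293T P-bodies, MALAT1 at 296 against 254 CPM, KCNQ1OT1 at 44.1 against 35.4 CPM and NEAT1 at 194 against 63.6 CPM. The part of nuclear RNA in the results that follow was not tested.

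P-body enrichment in HEK293T and mESC was largely in the same direction. A gene was called enriched or depleted where the edgeR quasi-likelihood test gave an adjusted p under 0.05, and enrichment is the log2 change of P-body against cytoplasm. Of the 4078 members called in both cell types, 3630 (89.0%) had the same direction. In both cell types 2202 members were enriched, which was 30.6% of all members, and 1428 were depleted, which was 19.8%. Another 94 members were enriched in HEK293T and depleted in mESC, and 354 were depleted in HEK293T and enriched in mESC. Together these 448 genes made up 6.22% of the members. Among members, 39.7% were called enriched and 41.6% depleted in HEK293T, against 19.3% and 22.8% of all 21903 human genes with a count. In mESC 43.4% of members were enriched and 23.6% depleted, against 25.8% and 20.6% of all 15881 mouse genes.

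**Figure D1:**
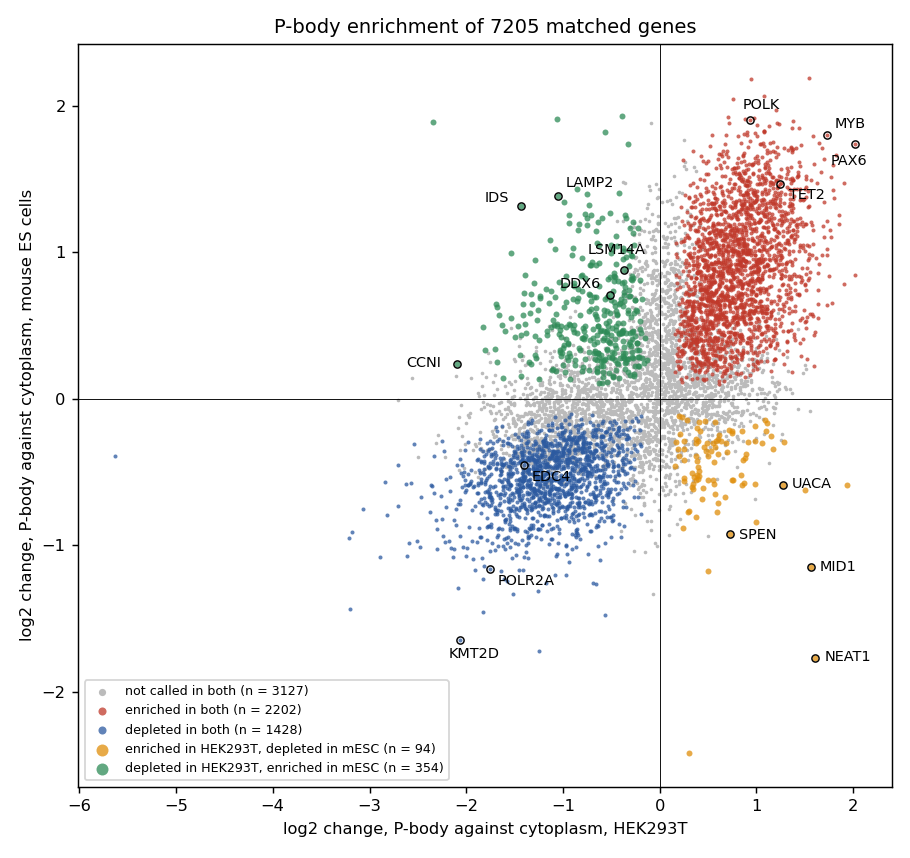
Log2 change of P-body against cytoplasm in HEK293T (horizontal) and in mouse ES cells (vertical), with 1 point for each of the 7205 members, coloured by the calls in both cell types. Most called points lie in the upper right (2202) and lower left (1428) quadrants, and 16 genes described in the text are circled.

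More members were enriched than depleted in both, which turned round with library size alone, where 1452 were enriched and 2649 depleted in both. Of the 2859 members enriched in HEK293T, 77.0% were enriched and 3.29% were depleted in mESC. Of the 3127 enriched in mESC, 70.4% were enriched and 11.3% were depleted in HEK293T. The depleted genes overlapped as 47.6% of the 2999 depleted in HEK293T and as 84.0% of the 1701 depleted in mESC. By at least 2-fold in each cell type, 354 members were enriched in both and 43 were depleted in both. Across members the changes correlated with a Spearman rho of 0.709 and a Pearson r of 0.691, given as a description because genes are not independent replicates. Single pairs of P-body and cytoplasm libraries correlated with a rho of 0.962 within HEK293T, 0.915 within mESC and 0.671 to 0.706 between them. The changes spread more widely in HEK293T, with an SD over members of 0.90, than in mESC, with 0.64. At the low end of HEK293T stood TXNDC5, an endoplasmic reticulum disulfide isomerase, at −5.63 against −0.39 in mESC. It was chosen here after its value was seen, and it shares exons with a read-through gene in human.

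The zero point of each change depends on the scaling. Values are shares of a library, so that less of a transcript in P-bodies and more of other RNA there cannot be told apart. With the TMM factors used here the median over members was −0.033 in HEK293T and 0.14 in mESC, and with library size alone it was −0.17 and −0.26. A log2 change in mESC between 0 and about the size of that shift can therefore change sign. Such cases are named for class medians and for genes called in mESC. The difference in enrichment, tested as the interaction of cell type and fraction over the 8 libraries, was called for 65.0% of members, higher in HEK293T for 1130 (15.7%) and higher in mESC for 3550 (49.3%). The share of these calls that were higher in mESC was 75.9%. It was 69.1% with RLE size factors, 65.2% with a filter on low counts, 62.2% with TMM factors from the members alone and 53.7% with library size alone. A higher difference need not mean enrichment. Of the 3550 higher in mESC, 974 were depleted in both cell types and 988 were depleted in HEK293T and not called in mESC. Of the 1130 higher in HEK293T, 478 were enriched in both, 408 were enriched in HEK293T and not called in mESC, and 18 were depleted in both. The median absolute difference over members was 0.50, and 1185 members (16.4%) differed by at least 2-fold.

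Base composition ran with enrichment in both cell types. GC3 of the longest coding transcript correlated with the log2 change at a rho of −0.54 in HEK293T and −0.57 in mESC, and GC content of the whole transcript at −0.58 and −0.68. Members enriched in both had a median GC3 of 41.2% in human and 49.4% in mouse, and members depleted in both had 69.3% and 65.6%. To show what these values look like in letters, windows of 10 codons that encode the same peptide in both species are printed for a gene of each direction, from coding exons and as near as possible to the GC3 of the whole coding sequence. Capitals mark the last base of each codon, and sequences are from GENCODE transcripts, read on the gene's strand. PNISR, which encodes a nuclear protein rich in serine and arginine, was enriched in both, at chr6:99412687-99412716 (minus strand, hg38) and chr4:21857203-21857232 (plus strand, mm10).
PNISR human: gcCcaAgcTtgGatTgcCcaAagAgaAgcT
PNISR mouse: gcCcaGgcTtgGatTgcAcaAagAgaAgcC
KMT2D, a histone H3 lysine methyltransferase, was depleted in both, at chr12:49054709-49054738 (minus strand, hg38) and chr15:98866177-98866206 (minus strand, mm10).
KMT2D human: cgGcgTtgTgcTctCtgTaaCtgCggGgaG
KMT2D mouse: cgGcgTtgTgcTctCtgTaaCtgCggGgaG
UACA, which encodes a coiled-coil protein with ankyrin repeats, was enriched in HEK293T and depleted in mESC, at chr15:70691320-70691349 (minus strand, hg38) and chr9:60848636-60848665 (plus strand, mm10).
UACA human: caCctGgcTgcTaaGtaTggAcaTgcAttG
UACA mouse: caCctGgcAgcTaaGtaCggAcaCgcGttG
IDS, a lysosomal sulfatase, was depleted in HEK293T and enriched in mESC, at chrX:149498254-149498283 (minus strand, hg38) and chrX:70360096-70360125 (minus strand, mm10).
IDS human: ctCcaTgcCaaCctGctTtgCccTgtGgaT
IDS mouse: ctCcaCgcCaaTctGctTtgTccTgtCgaT
The human and mouse windows differed at 3 last positions of codons in PNISR, at 0 in KMT2D, at 4 in UACA and at 4 in IDS. Over the whole coding sequence GC3 was 32.1% in human and 43.6% in mouse for PNISR, 61.0% and 59.9% for KMT2D, 38.8% and 67.5% for UACA, and 57.6% and 53.1% for IDS. UACA thus had a wider gap between species than IDS, with the lower GC3 in the species where it was P-body-enriched. The IDS gap was small. These genes are examples and do not stand for their groups. Among the named coding genes with the largest differences in its direction, UACA had the widest gap, while SMURF1 had 61.2% and 62.6%. SPEN lay between, at 48.5% and 61.6%. In the members named below as most enriched in both, human GC3 ran from 31.5% in BLZF1 to 59.1% in SGMS1.

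With GC3 averaged over both species, the medians within each cell type fell over 10 equal bins of members from low to high GC3. In the bin with the lowest GC3 the median log2 change was 0.58 in HEK293T and 0.90 in mESC, and in the bin with the highest it was −0.97 and −0.34. The 2 cell types had close medians with TMM factors, 0.35 and 0.34, in the bin with a median GC3 of 49.2%. Medians of bins were not computed with other scalings, which move the zero point. Transcript length ran with enrichment more in HEK293T, at a rho of 0.32, than in mESC, at 0.21, and the lengths of coding sequences correlated at 0.21 and 0.047. With the shortest coding transcript of each gene, transcript length correlated at 0.188 and 0.0843 and coding length at 0.139 and 0.0206. The bin of shortest transcripts, with a median of 1372 bases, had median changes of −1.07 and −0.28, while the longest, at 9400 bases, had 0.34 and 0.33. The difference in enrichment correlated with mean length at 0.25. It correlated with human minus mouse GC3 at −0.25 and with human minus mouse GC content of the transcript at −0.28. Where human GC3 lay farthest below mouse GC3, the difference was called higher in HEK293T for 26.8% and in mESC for 34.1% of that bin. In the bin where it lay farthest above, the shares were 5.24% and 63.6%. Over all members they were 15.7% and 49.3%. Correlations over genes carry no test, and composition, length and level are related among themselves.

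**Figure D2:**
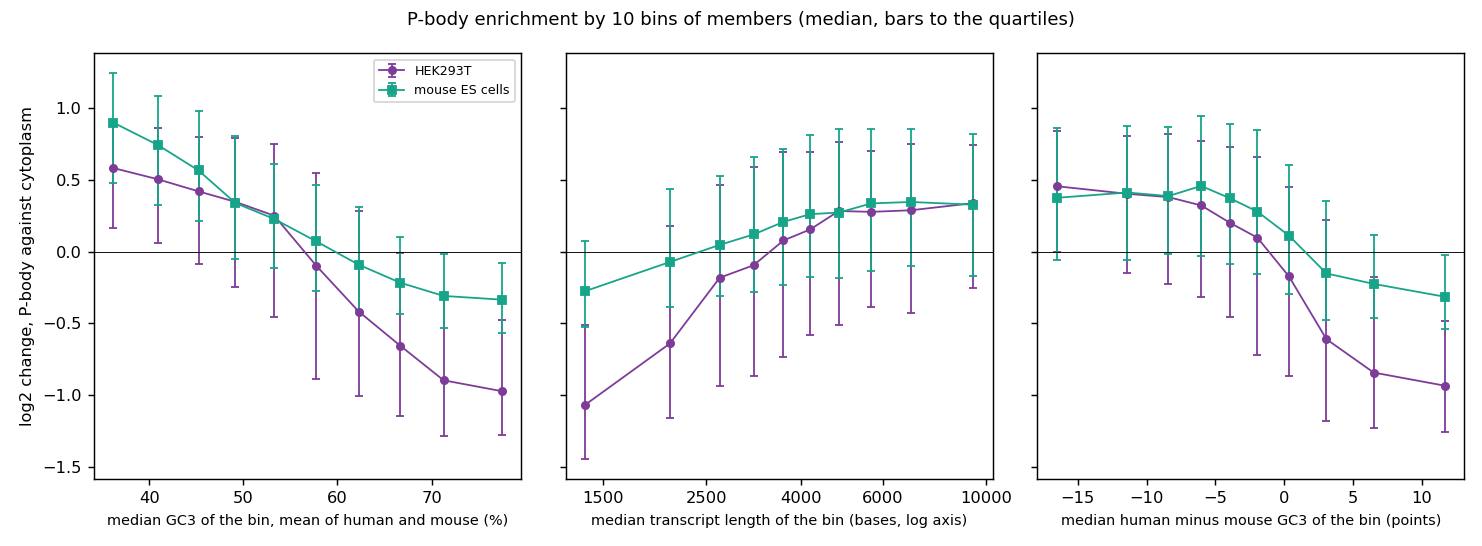
Median log2 change of P-body against cytoplasm, with bars to the quartiles, in 10 equal bins of members by GC3 (left), transcript length (middle, log axis) and human minus mouse GC3 (right), for HEK293T (circles) and mouse ES cells (squares). The medians fall with GC3 in both cell types, and the bin of shortest transcripts lies at −1.07 in HEK293T and −0.28 in mouse ES cells.

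The gap in GC3 between species was compared over the direction groups, and in the larger opposite group it lay near that of all members. In the smaller opposite group it was nearer to that of members enriched in both. GC3 was lower in human than in mouse for 63.3% of all members, with a median gap of −2.97 points. For the 94 members enriched in HEK293T and depleted in mESC it was lower in human for 83.5%, with a median gap of −7.79 points between GC3 medians of 52.6% and 60.8%. For the 354 of the reverse direction it was lower in human for 67.5%, with a gap of −2.91 points between medians of 49.4% and 53.9%. Members enriched in both were lower in human for 84.5% and had a gap of −6.06 points, and members depleted in both for 36.1%, with a gap of 3.12 points. The 94 genes had a median coding length of 2463 bases in human, against 1251 for the 354 and 1545 over all members.

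Members enriched in both were ranked by the smaller change of the 2 cell types, over those with at least 20 CPM in each and no overlap of fractions. The highest of these were PAX6, MYB, BLZF1, NSRP1, IKZF5, CREB1, PNISR and SGMS1. PAX6, a transcription factor of eye and neural development, had 617 and 587 CPM in HEK293T P-bodies against 137 and 159 CPM in cytoplasm, and 33.4 and 34.6 CPM against 9.35 and 11 CPM in mESC. The fractions did not overlap in either cell type, as the naming rule required and as held for 78.1% of all members. The log2 change of PAX6 was 2.02 ± 0.06 (SE) in HEK293T and 1.74 ± 0.14 in mESC, with adjusted p of 8.03e-36 and 2.14e-10 by edgeR. MYB, a transcription factor of proliferating progenitors, had 119 and 112 CPM against 33.6 and 36.1 CPM in HEK293T, and 147 and 138 CPM against 41.9 and 40.2 CPM in mESC. Its changes of 1.73 ± 0.09 and 1.80 ± 0.07 differed by −0.07 ± 0.12, which did not pass the test (edgeR adjusted p = 0.627).

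CREB1, which activates cAMP-responsive genes, had 456 and 452 CPM in P-bodies against 131 and 132 CPM in HEK293T, and 818 and 781 CPM against 262 and 268 CPM in mESC. Its changes were 1.79 ± 0.06 and 1.59 ± 0.04, and the difference of 0.19 ± 0.07 passed the test (edgeR adjusted p = 0.0141). For BLZF1, a Golgi matrix protein, the changes were 1.68 and 1.71, and for NSRP1, a splicing regulator, 1.64 and 1.75. IKZF5, a zinc finger repressor of the Ikaros family, changed by 1.70 and 1.64, PNISR by 1.59 and 1.60, and SGMS1, a sphingomyelin synthase of the Golgi, by 1.58 and 1.79. All 8 kept both calls under all 14 alternatives that were run.

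Under the same limits of level and overlap, the members most depleted in both included KMT2D, RPL39, PCNX3, RPLP1, ATN1, PSMB6 and POLR2A. KMT2D had 34.4 and 32.6 CPM in HEK293T P-bodies against 136 and 145 CPM in cytoplasm, and 71.8 and 75.6 CPM against 238 and 223 CPM in mESC. It fell by 2.07 ± 0.08 on the log2 scale in HEK293T and by 1.65 ± 0.06 in mESC, with adjusted p of 4.09e-30 and 2.57e-17 by edgeR. POLR2A, the largest subunit of RNA polymerase II, had 115 and 110 CPM against 367 and 388 CPM in HEK293T, and 526 and 540 CPM against 1204 and 1182 CPM in mESC. Its changes were −1.75 ± 0.06 and −1.16 ± 0.04, and the difference of −0.59 ± 0.07 was called (edgeR adjusted p = 4.96e-09). Every P-body library of both genes lay below every cytoplasm library of its cell type, as the naming rule required.

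The corepressor ATN1 changed by −1.64 in HEK293T and by −1.18 in mESC. The ribosomal proteins RPL39 and RPLP1 changed by −1.82 and −1.61, and by −1.46 and −1.23. PSMB6, a catalytic subunit of the proteasome, changed by −1.91 and −1.17, and PCNX3 by −1.83 and −1.23. These depleted genes held both long and short transcripts, from KMT2D with 20686 bases in human to RPLP1 with 1174 bases. All 7 kept both calls under the same 14 alternatives.

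Gene classes were compared by their medians and counts, beside 30.6% of all members enriched and 19.8% depleted in both. Of 47 classes with at least 10 members, 38 had medians on the same side of the median of all members in both cell types, 19 above and 19 below, and the class medians correlated with a rho of 0.882. A class count is a description, and no class was tested as a set.

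In HEK293T the lowest class medians were those of histones, ribosomal proteins and oxidative phosphorylation. Of 79 cytosolic ribosomal proteins, 70 were depleted in both and 1 was enriched in both, with medians of −1.62 in HEK293T and −0.67 in mESC. RPS12 and RPL9 were lowest, at −2.89 and −2.61 in HEK293T and −1.08 in mESC for each. The ribosomal protein-like gene RPL7L1, which takes part in ribosome assembly, was enriched in both, with changes of 0.80 and 0.27, where the mESC value turned to −0.13 and was not called with library size alone. RPS2, of the small subunit, was depleted in HEK293T and enriched in mESC, at −1.62 and 0.14, and its mESC value was −0.26 with library size alone. Many of these short genes have processed copies elsewhere in the genome between which the authors' quantification could split reads.

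Of 58 subunits of oxidative phosphorylation, 41 were depleted in both and 0 were enriched in both, with medians of −1.35 and −0.59. NDUFB5, of complex I, changed by −3.06 and −0.76. Among 14 glycolytic enzymes 12 were depleted in both, and PGAM1 and PFKL were lowest, at −1.72 and −1.68 in HEK293T and −0.43 and −0.78 in mESC. Of 25 histone genes 20 were depleted in both, with medians of −1.89 and −0.59. H2AC13 changed by −3.20 and −1.44, and H4C4 by −3.21 and −0.95. H3C15 was enriched in mESC, at −2.34 and 1.89, and histone symbols were matched by name only.

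Other classes with negative medians in both cell types were counted likewise. Of 38 proteasome subunits 18 were depleted in both, with medians of −1.03 and −0.29. For 56 mitochondrial ribosomal proteins, 12 were depleted in both, where 19.8% of all members were. In HEK293T 44 (78.6%) were called depleted, against 41.6% of all members. In mESC 14 (25.0%) were, which lay near the 23.6% of all members. MRPL50 and MRPL1 were enriched in both, at 1.11 and 0.87 in HEK293T and 0.61 and 0.83 in mESC. For 32 genes of the translocon and N-glycosylation the medians were −1.03 and −0.15, and 11 were depleted in both. STT3A, a catalytic subunit of oligosaccharyltransferase, differed in direction, at −1.53 and 0.55. The 14 collagens, laminins and integrins had medians of −0.91 and −0.61, the latter below that of oxidative phosphorylation, with 9 depleted in both, among them the basement membrane proteoglycans AGRN and HSPG2.

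The classes with the highest medians in HEK293T were transcription factors of the zinc finger families. Of 33 ZBTB factors 22 were enriched in both and 0 were depleted in mESC, with medians of 0.64 and 0.65. ZBTB37 changed by 1.44 and 1.85 and ZBTB20 by 1.51 and 1.5. Of 31 other zinc finger genes 21 were enriched in both, with medians of 0.78 and 0.91, led by ZFP37 at 1.08 and 1.82 and by ZFPM2, a cofactor of GATA factors, at 1.01 and 1.86. Most ZNF and Zfp genes could not enter, since 378 of 391 in human and 316 of 334 in mouse had no matching symbol at the level required. Among 32 SOX, FOX, KLF and HOX genes 16 were enriched in both and 5 were depleted in both. KLF7 changed by 1.46 and 1.59, and FOXP4 by −1.34 and −0.60.

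Among cell division genes, 3 classes had medians above those of all members that lay close together in the cell types with TMM factors. With library size alone the medians lay farther apart, at 0.42 in HEK293T and 0.12 in mESC for kinesins. They were then 0.34 and 0.055 for kinetochore and checkpoint genes, and 0.38 and 0.022 for centrosome and cilium genes. Of 27 kinesins 14 were enriched in both, with medians of 0.55 and 0.52, and KIF18A and KIF20B, motors of mitosis, led at 1.07 and 1.01 in HEK293T and 2.06 and 1.61 in mESC. Of 41 kinetochore and checkpoint genes 20 were enriched in both, with medians of 0.47 and 0.46. SGO1, which protects cohesion at centromeres, changed by 1.37 and 1.85, while SPC24 changed by −1.45 and −0.59. Of 61 centrosome and cilium genes 28 were enriched in both and 4 depleted in both, led by CEP57 at 1.23 and 1.44. Of 39 cyclins and cyclin-dependent kinases 12 were enriched in both, which lay near the 30.6% of all members. Their medians were −0.021 and 0.235, the latter −0.167 with library size alone.

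Chromatin enzymes were enriched in both for 27 of 58 histone lysine methyltransferases and demethylases and for 24 of 48 remodelers. The medians were 0.48 and 0.33 for the former, and 0.46 and 0.28 for the latter, and both mESC medians turned negative, to −0.070 and −0.13, with library size alone. KMT2E changed by 1.25 and 1.36 and KDM6A by 0.90 and 1.48, opposite to KMT2D and to KDM6B at −0.90 and −1.03. TET2, a 5-methylcytosine dioxygenase, had 1013 and 954 CPM in HEK293T P-bodies against 410 and 420 CPM in cytoplasm, and 12216 and 12278 CPM against 4582 and 4296 CPM in mESC. Its changes were 1.25 ± 0.05 and 1.46 ± 0.03. POLK, a translesion DNA polymerase, had 155 and 161 CPM against 84.4 and 81.5 CPM in HEK293T and 1180.4 and 1135 CPM against 305 and 314 CPM in mESC. It was enriched by 0.93 ± 0.07 and 1.90 ± 0.04, and the difference of −0.97 ± 0.07 was called (edgeR adjusted p = 5.45e-13).

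**Figure D3:**
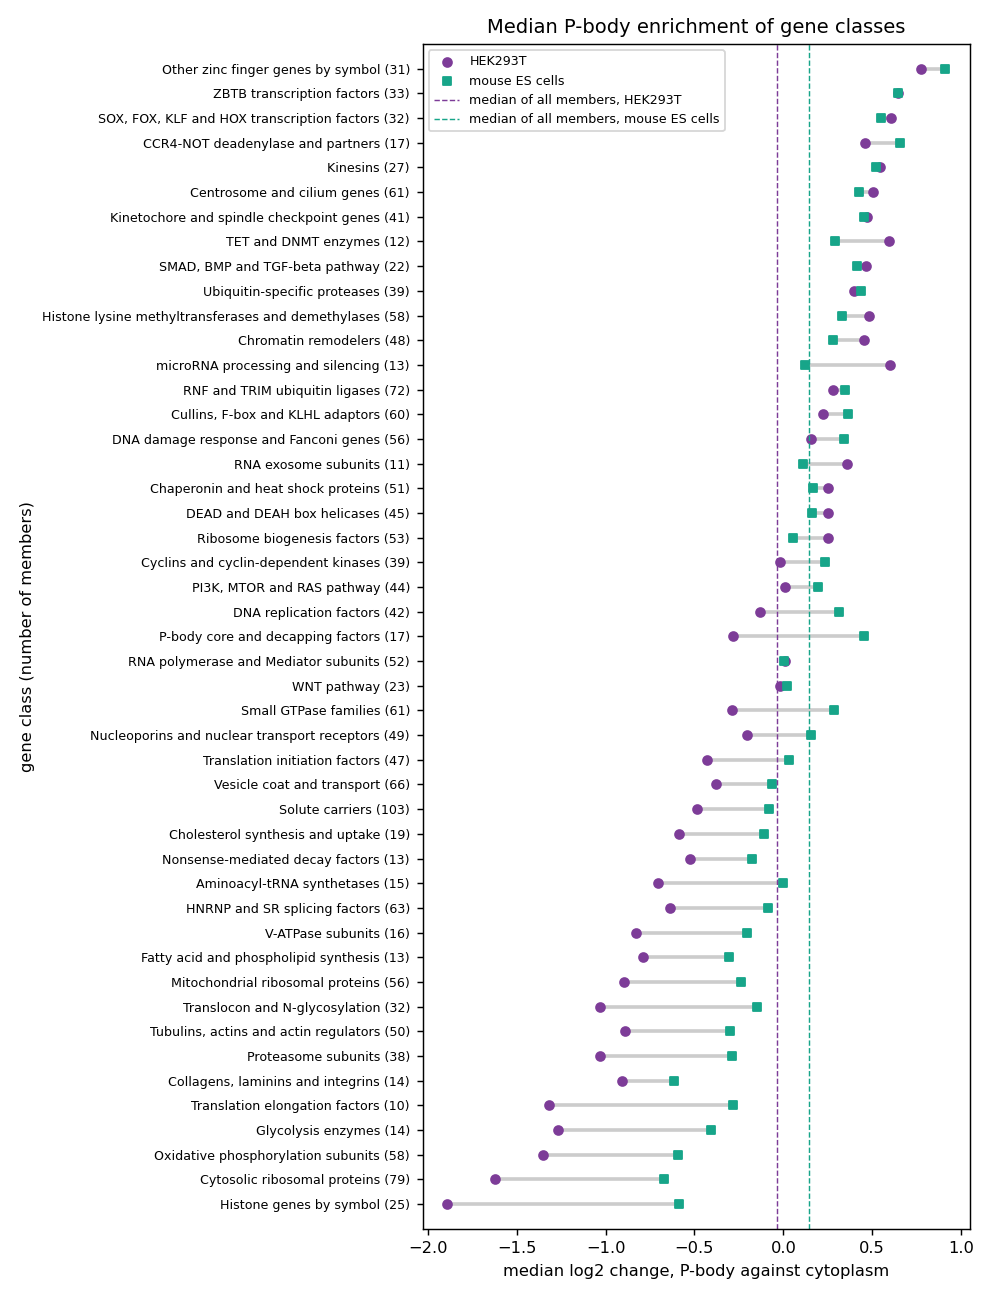
Median log2 change of P-body against cytoplasm for the 47 classes with at least 10 members, in HEK293T (circles) and mouse ES cells (squares), with the number of members in parentheses and the medians of all members as dashed lines. Ribosomal proteins, oxidative phosphorylation subunits and histones lie lowest in HEK293T, between −1.89 and −1.35, and the zinc finger genes other than ZBTB lie highest in both, at 0.78 and 0.91.

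Of the members enriched in HEK293T and depleted in mESC with at least 20 CPM in each cell type, NEAT1, MID1, UACA and SPEN had the largest differences. NEAT1, the long noncoding RNA of nuclear paraspeckles (chr11:65422774-65445540 in hg38 and chr19:5824708-5845478 in mm10), had 192 and 196 CPM in HEK293T P-bodies against 64.7 and 62.6 CPM in cytoplasm. In mESC it had 9.83 and 8.54 CPM in P-bodies against 29.4 and 33.3 CPM. P-bodies were thus higher in every HEK293T library and lower in every mESC library, a separation that the naming rule required. The changes were 1.61 ± 0.07 and −1.77 ± 0.15, with a difference of 3.38 ± 0.14 (edgeR adjusted p = 1.01e-18). NEAT1 has isoforms of different length that counts per gene do not separate.

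MID1, a ubiquitin ligase bound to microtubules (chrX:10445310-10833654 in hg38 and chrX:169685199-170005736 in mm10), had 617 and 559 CPM in HEK293T P-bodies against 198 and 200 CPM in cytoplasm. In mESC it had 113 and 123 CPM against 273 and 249 CPM. The changes were 1.56 ± 0.06 and −1.15 ± 0.06, and the difference was 2.71 ± 0.08 (edgeR adjusted p = 3.6e-22). NEAT1 and MID1 were the members with at least 2-fold in each direction in this group. GC3 of MID1 was 61.8% in human and 69.6% in mouse, and the annotated transcript was 42.5% GC in human and 54.9% in mouse.

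UACA had 173 and 190 CPM in HEK293T P-bodies against 80.0 and 70.4 CPM, and 20.8 and 22.1 CPM against 29.8 and 34.8 CPM in mESC. Its changes were 1.27 ± 0.07 and −0.59 ± 0.12. SPEN, a transcriptional corepressor, had 1648 and 1565 CPM against 956 and 992 CPM in HEK293T, and 67.3 and 57.1 CPM against 118 and 117 CPM in mESC, with changes of 0.72 ± 0.05 and −0.92 ± 0.07. For both genes the libraries of the fractions did not overlap and the difference was called, as the naming rule required. The differences were 1.86 ± 0.14 and 1.64 ± 0.08 (edgeR adjusted p = 5.7e-13 and 2.03e-17).

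Further genes of this group named by the rule had smaller changes in mESC. SMURF1, a ubiquitin ligase for SMAD proteins, changed by 1.18 and −0.34, and MED13L, of the kinase module of Mediator, by 1.15 and −0.25. TNRC6C, a partner of Argonaute proteins, changed by 1.28 and −0.29, and it lost its mESC call with DESeq2 and without either of 2 mESC libraries, P-body replicate 1 and cytoplasm replicate 1. Its relative TNRC6A was enriched in both, at 1.17 and 1.18.

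Of the members depleted in HEK293T and enriched in mESC with at least 20 CPM in each cell type, IDS and LAMP2, both genes of the lysosome, had the largest differences. IDS (chrX:149476988-149521096 in hg38 and chrX:70343069-70365084 in mm10) had 16.3 and 15.3 CPM in HEK293T P-bodies against 41.8 and 43.4 CPM in cytoplasm, and 37.8 and 40.5 CPM against 17.0 and 14.4 CPM in mESC. Its changes were −1.43 ± 0.13 and 1.32 ± 0.13, with a difference of −2.75 ± 0.17 (edgeR adjusted p = 7.05e-15). In human a pseudogene copy of IDS lies beside it, with which reads could be shared. LAMP2, a membrane protein of the lysosome, had 77.6 and 84.1 CPM against 171 and 164 CPM in HEK293T, and 1094 and 1048 CPM against 406 and 414 CPM in mESC. Its changes were −1.05 ± 0.07 and 1.39 ± 0.04. In each gene the order of the fractions was reversed between the cell types in every library, as the naming rule required.

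EXOSC1, a subunit of the RNA exosome, had 21.2 and 17.9 CPM in HEK293T P-bodies against 32.4 and 38.1 CPM, and 119 and 98.4 CPM against 41.8 and 38.9 CPM in mESC, with changes of −0.85 ± 0.13 and 1.43 ± 0.09. RBBP9, a serine hydrolase, changed by −0.94 and 1.20, and CCDC167 by −1.39 and 0.84. PPP1R11, an inhibitor of protein phosphatase 1, changed by −1.69 and 0.65, PGRMC1, a haem-binding membrane protein, by −1.81 and 0.33, and CCNI, a cyclin-like protein, by −2.10 and 0.24. These last 3 lost the opposite call with library size alone, where the mESC change was −0.073 for PGRMC1 and −0.16 for CCNI, and CCNI also lost it with DESeq2, with a filter on low counts and without mESC P-body replicate 2.

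**Figure D4:**
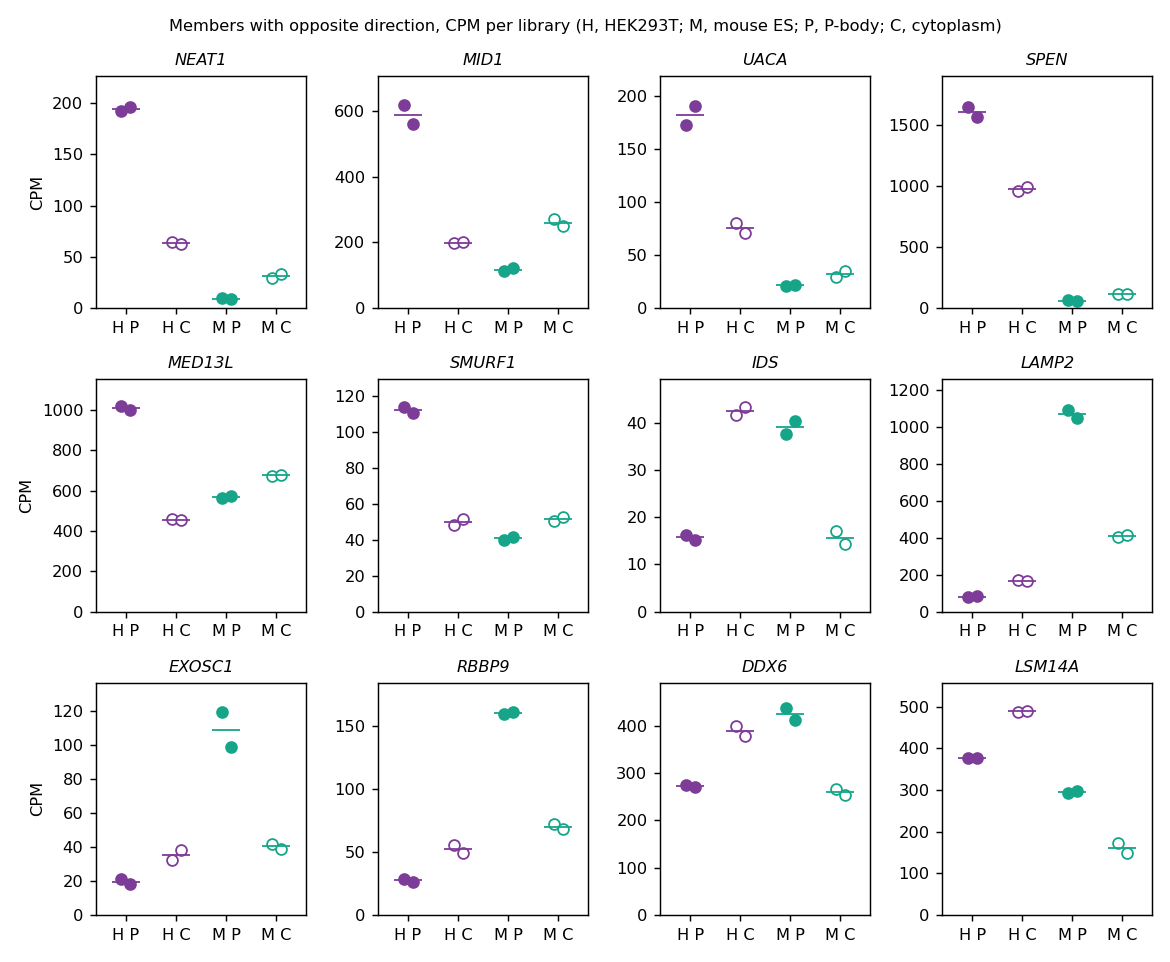
CPM in each library for 12 members called in opposite directions, with filled points for P-body and open points for cytoplasm libraries, HEK293T at left and mouse ES cells at right in each panel, and lines at the mean of 2 libraries. In NEAT1, MID1, UACA, SPEN, MED13L and SMURF1 the filled points are above the open ones in HEK293T and below in mouse ES cells, and in the other 6 genes the order is reversed.

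Across the opposite groups the difference had a median of 0.97 in the 94 genes and −1.22 in the 354, and it was at least 2-fold in 43 and 238 of them. All 448 had the difference called. The fractions did not overlap in either cell type for 94 and 352 of them, against 78.1% of all members. Entry to these groups needed opposite calls in the cell types, which makes both outcomes likely, so these counts are not further support. With library size alone the groups held 394 and 171 genes, of which 72 and 120 were shared with the 94 and the 354. Under every one of the 14 alternatives 34 of the 94 and 77 of the 354 kept the opposite calls.

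Genes that encode P-body components did not share a direction. Of 17 core and decapping factors 7 were enriched in both, 3 were depleted in both and 3 were depleted in HEK293T and enriched in mESC, with medians of −0.29 and 0.45. The HEK293T median was 0.26 when members needed 20 CPM. With library size alone the class medians were −0.41 in HEK293T and 0.049 in mESC. Over all members 4.91% were depleted in HEK293T and enriched in mESC. LSM14A had 377 and 377 CPM in HEK293T P-bodies against 487 and 490 CPM in cytoplasm, and 294 and 297 CPM against 172 and 149 CPM in mESC. Its changes of −0.37 ± 0.05 and 0.88 ± 0.06 differed by −1.25 ± 0.08 (edgeR adjusted p = 5.92e-15), and the counts do not separate the endogenous transcript from the introduced fusion.

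DDX6 had 275 and 270 CPM in HEK293T P-bodies against 401 and 378 CPM, and 438 and 413 CPM against 266 and 255 CPM in mESC. Its changes were −0.51 ± 0.06 and 0.71 ± 0.05, with a difference of −1.22 ± 0.07 (edgeR adjusted p = 2.02e-15). EDC4 was depleted in both, with 21.5 and 19.7 CPM against 50.5 and 58.2 CPM in HEK293T and 58.3 and 61.5 CPM against 80.6 and 83.0 CPM in mESC, or −1.40 ± 0.12 and −0.45 ± 0.07. The decapping cofactors DCP1A and PNRC2 were enriched in both, at 1.58 and 0.62 in HEK293T and 0.98 and 1.67 in mESC. Among the LSM ring subunits LSM7 was depleted in both, at −2.08 and −0.72, LSM3 changed by −0.29 and 0.45, and LSM2 had −2.56 in HEK293T and 0.14, which was not called, in mESC.

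Among RNA decay factors outside the core, deadenylases and decay factors were counted apart. Of 17 genes of the CCR4-NOT complex and its partners 9 were enriched in both and 1 was depleted in both, with medians of 0.46 and 0.65. CNOT4 and TOB1 led at 1.20 and 1.36 in HEK293T and 1.65 and 1.43 in mESC, and the deadenylase CNOT7 differed in direction, at −0.21 and 0.81. Among 13 factors of nonsense-mediated decay 5 were depleted in both, with UPF1 at −1.59 and −0.84, and 3 were enriched in both, with UPF3B at 0.50 and 1.17. Its paralog UPF3A changed by 0.50 and −1.18.

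Small GTPases and nuclear transport genes held the most members depleted in HEK293T and enriched in mESC among the classes. They were 8 of 61 genes of small GTPase families such as RAB and ARF, with medians of −0.29 and 0.28, and 8 of 49 nucleoporins and transport receptors, with medians of −0.21 and 0.15, while 4.91% of all members had this pattern. Both mESC medians turned negative with library size alone, to −0.12 and −0.25, and so did the values of ARF4, CDC42, NUP93 and XPO7 named here. RAB10, of exocytosis, changed by −1.26 and 0.60, ARL15 by −0.80 and 0.96, ARF4 by −0.93 and 0.29 and CDC42 by −0.84 and 0.35. Among the nucleoporins NUP37 changed by −0.62 and 0.46, NUP98 by −0.34 and 0.45 and NUP93 by −1.29 and 0.30, and the export receptor XPO7 by −1.10 and 0.20. Both classes also held members enriched in both, such as RAB33B at 1.15 and 1.22 and the importin KPNA3 at 0.82 and 1.51.

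DNA replication and repair genes included further members of opposite direction. PCNA, the sliding clamp, changed by −0.63 and 0.77, GINS4 by −1.34 and 0.59, FANCD2 by −0.96 and 0.66 and RAD51C by −0.70 and 0.93. Of 42 replication factors 9 were enriched in both, with ORC3 at 1.32 and 1.06 and CDC6 at 1.21 and 1.05, 9 were depleted in both and 4 were depleted in HEK293T and enriched in mESC. Of 56 genes of the damage response and Fanconi pathway 22 were enriched in both. Among translation initiation factors EIF4E and EIF5B were enriched in both, at 1.11 and 1.37 in HEK293T and 1.70 and 0.84 in mESC, and EIF3E changed by −0.35 and 1.24.

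Signalling receptors and mediators were mixed. Of 22 genes of the SMAD, BMP and TGF-beta pathway 10 were enriched in both, led by SMAD5 at 1.59 and 1.06 and by the receptor BMPR1A at 0.96 and 1.16, while LTBP4 changed by −0.96 and −1.06. In the WNT pathway 8 of 23 were enriched in both, with AXIN2 at 1.73 and 0.98 and FZD6 at 0.66 and 1.61, and 7 were depleted in both, with GSK3A at −1.5 and −0.99. Of 44 PI3K, MTOR and RAS genes 18 were enriched in both, with RICTOR at 1.00 and 1.42, and 7 were depleted in both, with TSC2 at −1.20 and −0.66. Among the 7 pluripotency genes that were members, SOX2 changed by 1.42 and 1.19 and TRIM71 by 0.60 and −0.28.

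The direction groups were then followed into human cells that had not been used to form them, liver bud progenitors and neurons at day 20, both made from the UCLA4 embryonic stem cell line with LSM14A-GFP. Their libraries were labelled polyA RNA, so priming and cell type cannot be told apart in them, and no test was made against HEK293T or mESC. At 5 CPM or more, members enriched in both were enriched in liver bud progenitors for 81.5% of 2168 genes and in neurons for 68.4% of 2077, where 46.0% and 26.0% of all 7205 members were called enriched, and 21.4% and 14.6% of all genes with a count. Members depleted in both were depleted for 55.3% of 1385 and 66.8% of 1337, where 25.1% and 26.0% of all members were called depleted, and 17.1% and 14.1% of all genes.

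In liver bud progenitors the shares of the opposite groups lay near the 46.0% enriched and 25.1% depleted among all members, and in neurons the corresponding shares of all members were 26.0% each. Members enriched in HEK293T and depleted in mESC were enriched for 45.6% and depleted for 27.8% of 90 genes in liver bud progenitors, and enriched for 47.8% and depleted for 8.89% of 90 in neurons. Members depleted in HEK293T and enriched in mESC were enriched for 40.9% and depleted for 24.3% of 337 genes in liver bud progenitors. In neurons 6.41% of 312 were enriched and 35.3% were depleted. LAMP2 changed by 0.57 in liver bud progenitors and −1.31 in neurons, and IDS by 0.94 and −0.93. MID1 was enriched in both, at 0.48 and 0.95, and so was UACA, at 0.70 and 1.56. NEAT1 changed by −1.94 in liver bud progenitors and had 0.33, which was not called, in neurons. DDX6 was enriched in both, at 0.92 and 1.49, as was LSM14A, at 0.28 and 2.13.

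**Figure D5:**
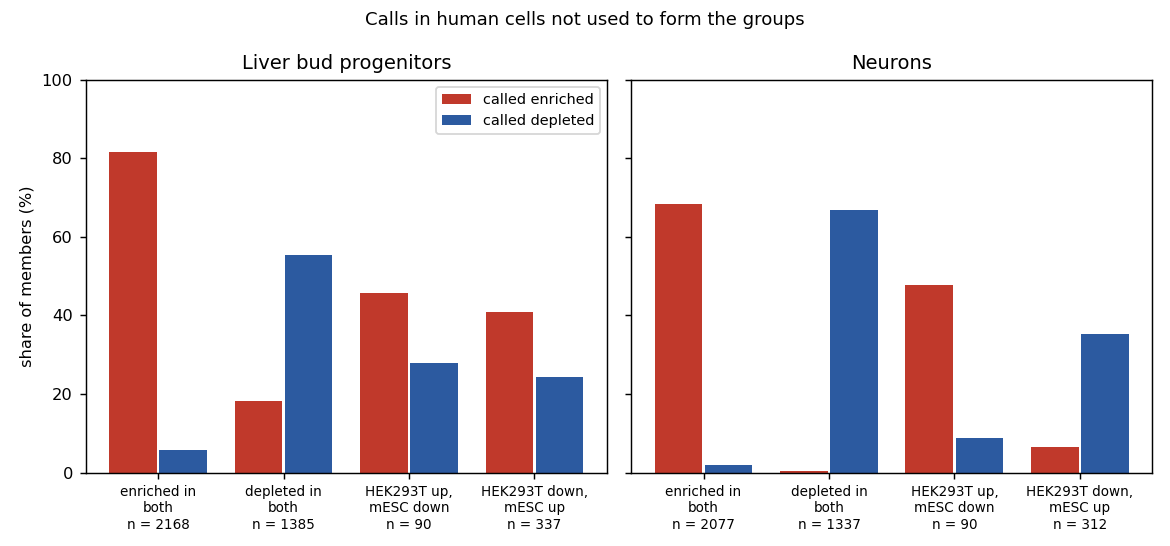
Share of members called enriched or depleted in P-bodies of liver bud progenitors (left) and neurons (right), for the 4 direction groups formed in HEK293T and mouse ES cells, over members with at least 5 CPM. Members enriched in both were called enriched for 81.5% and 68.4%, and members depleted in HEK293T and enriched in mouse ES cells for 40.9% and 6.41%.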

How the data were processed

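P-body and cytoplasm RNA were sequenced from HEK293T and mESC, with 2 libraries per fraction, and in liver bud progenitors and neurons. Read counts, deposited as whole numbers for each gene symbol, were for HEK293T and mESC made by the authors, per the study's methods, from snapTotal-seq reads with the nf-core RNA-seq pipeline and salmon on refGene annotation of hg38 or mm10, and genes under 10 reads over all samples were removed. For polyA libraries the methods name HISAT2 and featureCounts, and which tools made the liver bud progenitor and neuron columns is not given in the sources used here. Salmon divides reads among near-identical copies. The deposited tables of fold changes and p-values from the authors' own DESeq2 comparisons were not used. All columns of samples in the count tables belonged to samples of the series, and 0 were left unused.

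Groups were taken from the labels. Fractions were compared within each cell type over all its genes with a count, in edgeR 4.0.16 (R 4.3.3) by its quasi-likelihood test, with TMM factors, no covariate and Benjamini-Hochberg adjustment, two-sided, and called at an adjusted p under 0.05. The difference between cell types was the interaction of cell type and fraction over the members, with factors computed within each table. No label says that replicates came from separate cultures, so p-values measure only the spread between these libraries. Library totals from 8148119 to 17972284 put 3 counts at 0.167 to 0.368 CPM. Such floors describe counting error alone, in read counts without molecular identifiers. Symbols were matched by spelling without an ortholog table, and 0 were ambiguous.

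The members and gene lists were chosen with earlier results of these data known. Genes were named by a rule. Among members called in both cell types with at least 20 CPM in each and no overlap of fractions, it took the 8 enriched and the 8 depleted with the largest smaller change, and the 8 of each opposite direction with the largest called difference. It added LSM14A, DDX6, EDC4, POLK and TET2, and for each class up to 2 members with the highest and 2 with the lowest mean change and up to 4 of opposite direction. Some genes that this rule named are not reported here. The longest coding transcript of each gene gave GC content and length, from GENCODE releases 44 and M21 (hg38 and mm10), held for 98.0% of members in both species. Window letters came from the transcripts and exon coordinates of these releases.

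The scripts were tested on simulated data in which 200 genes were changed 3-fold, at the means and depths of these libraries. They recovered 100% of them in HEK293T (21592 genes) and mESC (15881 genes), with 21 and 13 false calls, and 99.5% of 196 in the interaction (7082 genes), with 10 false calls. The false calls were 9.5%, 6.1% and 4.88% of all calls. In the simulations of single cell types far fewer genes changed than were called in the data, so they do not probe the scaling. Alternatives were RLE size factors, library size only, DESeq2 1.42.0, filterByExpr, the replicate number as a block, minimum levels of 1 and 20 CPM, TMM on the members alone, removal of ribosomal RNA genes, the shortest coding transcript, and leaving out each library.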

Additional observations from a re-analysis of the deposited data

Results flagged for a closer look

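The difference in P-body enrichment between HEK293T and mESC, tested as the interaction of cell type and fraction by edgeR, was called higher in HEK293T for 1130 members and higher in mESC for 3550. Of these, 94 members were enriched in HEK293T and depleted in mESC, and 354 were depleted in HEK293T and enriched in mESC. Among those higher in mESC, 974 were depleted in both and 988 were depleted in HEK293T and not called in mESC.

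Among named genes whose effect differed by this test, the log2 difference, HEK293T minus mESC, was 3.38 for NEAT1, 2.71 for MID1, 1.86 for UACA and 1.64 for SPEN. It was 1.58 for TNRC6C, 1.52 for SMURF1 and 1.40 for MED13L. It was −2.75 for IDS, −2.43 for LAMP2, −2.34 for PPP1R11 and −2.34 for CCNI. It was −2.29 for EXOSC1, −2.24 for CCDC167, −2.14 for RBBP9 and −2.13 for PGRMC1, and for the P-body components LSM14A and DDX6 it was −1.25 and −1.22. With 2 libraries per group, no library was tested as standing apart from its group.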

How the results depend on the processing

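With library size only, the mESC calls were 2591 enriched and 6609 depleted genes (4104 and 3271 with TMM), and the difference was called higher in HEK293T for 1970 and higher in mESC for 2289 members. Members enriched in both were then 1452 and depleted in both 2649, and the opposite groups held 394 (enriched in HEK293T) and 171 (depleted in HEK293T). With DESeq2, 1784 genes were depleted in mESC and 178 members were depleted in HEK293T and enriched in mESC. With filterByExpr, 174 were enriched in HEK293T and depleted in mESC. With a minimum of 20 CPM, 2223 differences were higher in mESC and 816 members were depleted in both, out of 4229 members. With a minimum of 1 CPM (9579 members), rho was 0.646. The sign turned with library size only in mESC for ARF4 (−0.11), CCNI (−0.16), CDC42 (−0.054), NUP93 (−0.10), PGRMC1 (−0.073), RPL7L1 (−0.13), RPS2 (−0.26) and XPO7 (−0.20), and in the difference for BMPR1A (0.071), CEP57 (0.055), SGMS1 (0.061) and TET2 (0.054). Beyond the scaling itself, the causes were not tested. The share of same direction among members called in both was 87.9% to 92.2% under the alternatives. Leaving out 1 library gave 2051 to 2230 members enriched in both, 1137 to 1419 depleted in both, 69 to 102 and 290 to 332 in the opposite groups, and a rho of 0.697 to 0.715. The lone library left in a group was then assumed to vary like the others. Same-numbered libraries did not deviate together (correlations of −0.083 and −0.022), which cannot settle whether the numbers pair them. Per the study's methods P-bodies were sorted from the corresponding cytoplasmic fraction, and the labels do not say which libraries share a preparation. With the replicate number as a block, 2191, 1448, 95 and 351 members fell in the 4 groups, and 1087 and 3476 differences were called. At 3 counts the libraries reach down to between 0.167 and 0.368 CPM, below the minimum of 5 CPM.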
